A study of Mus musculus with 22 samples.

Results

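Intergenic MTF2 peaks are the regions of the wild-type MTF2 list that touch neither a protein-coding gene body nor a window that extends 1 kb to each side of a protein-coding transcription start site (TSS), by the basic set of GENCODE M21 on mm10. They numbered 1147 of the 6357 MTF2 peaks, a share with an exact Clopper-Pearson 95% interval of 17.1% to 19.0%. The other MTF2 peaks were sorted into 3960 promoter peaks that touch such a window, 723 exonic peaks and 527 intronic peaks. The rule uses position alone and no value of a mark. Intergenic here means outside protein-coding genes: 477 of the 1147 peaks (41.6%, 38.7% to 44.5%) lay in the body of a non-coding gene or pseudogene or within 1 kb of its start, and 670 did not. By the RefSeq annotation of the same build, 82 of the 1147 (7.15%, 5.73% to 8.80%) lay in a protein-coding gene body.

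The series comprises 22 ChIP-seq samples in 12 groups, from mouse embryonic stem cells cultured in medium with serum and LIF. The lists used here stand for 7 groups of 2 libraries: in wild-type cells of the E14 line those for MTF2, EZH2, H3K27me3 and H3K4me3, and the last 3 also in Mtf2 gene-trap cells (Mtf2 GT/GT), in which an inserted cassette breaks the Mtf2 coding sequence on both alleles. The labels do not give the number of clones behind the gene-trap cells. The 22 samples include no MTF2 library from those cells, so the gene trap could not be checked. Each group had 1 deposited list for both libraries, the lists give no read counts, and the depth is unknown. For that reason the spread between replicates could not be measured, no test compared the genotypes, and the intervals cover counting error over regions only. The wild-type lists held 7213 EZH2, 6294 H3K27me3 and 27418 H3K4me3 peaks, and the gene-trap lists 840, 963 and 26960. A peak absent from a list may lack the mark, or may have been lost at the calling threshold or at another step in making the list. These cannot be told apart.

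MTF2, also called PCL2, is a Polycomb-like accessory subunit of Polycomb repressive complex 2 (PRC2), and its winged-helix domain binds DNA that contains CpG dinucleotides. EZH2 is the catalytic subunit of PRC2 and places H3K27me3, the histone mark of Polycomb-repressed chromatin. H3K4me3 marks active and poised promoters and CpG islands, and in embryonic stem cells many promoters of developmental genes carry both marks, a state called bivalent.

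The sequences below show what the peaks look like at their centres. They were chosen after values were seen, as the widest peak, the most and the least CpG-dense peaks among the widest that overlap gene-trap EZH2, the widest without wild-type EZH2, the widest without wild-type H3K27me3 and the widest not yet shown at the start of a long non-coding RNA (lncRNA), passing over peaks with a copy elsewhere in the genome or on a ribosomal RNA gene. Each is the central 200 bp on the plus strand of GRCm38, read 5′ to 3′, with every CpG in capitals, and each peak is named by the protein-coding gene with the nearest TSS.
Cbx8 peak, chr11:119056442-119056641: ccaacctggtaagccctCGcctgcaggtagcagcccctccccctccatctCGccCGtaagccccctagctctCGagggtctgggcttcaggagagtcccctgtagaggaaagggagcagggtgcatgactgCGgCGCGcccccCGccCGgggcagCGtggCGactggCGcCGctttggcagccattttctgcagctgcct
Sox1 peak, chr8:12385475-12385674: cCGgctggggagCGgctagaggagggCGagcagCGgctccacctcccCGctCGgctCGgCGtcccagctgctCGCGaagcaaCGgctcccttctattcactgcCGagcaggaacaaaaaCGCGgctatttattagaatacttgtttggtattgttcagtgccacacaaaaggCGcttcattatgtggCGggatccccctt
Atoh1 peak, chr6:64733454-64733653: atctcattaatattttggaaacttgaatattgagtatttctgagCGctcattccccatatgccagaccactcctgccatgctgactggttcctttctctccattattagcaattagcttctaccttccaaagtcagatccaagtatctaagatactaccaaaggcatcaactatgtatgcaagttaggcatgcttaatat
Cdx2 peak, chr5:147313117-147313316: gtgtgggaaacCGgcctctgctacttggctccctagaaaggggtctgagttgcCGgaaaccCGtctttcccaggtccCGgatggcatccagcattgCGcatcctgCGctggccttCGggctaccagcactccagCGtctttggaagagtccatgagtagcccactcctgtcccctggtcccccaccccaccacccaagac
Id2 peak, chr12:25100615-25100814: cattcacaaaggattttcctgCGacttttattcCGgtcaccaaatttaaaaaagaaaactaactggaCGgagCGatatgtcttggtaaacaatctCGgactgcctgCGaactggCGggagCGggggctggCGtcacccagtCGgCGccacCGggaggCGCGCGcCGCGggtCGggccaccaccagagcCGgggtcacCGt
Ythdf1 peak, chr2:180892496-180892695: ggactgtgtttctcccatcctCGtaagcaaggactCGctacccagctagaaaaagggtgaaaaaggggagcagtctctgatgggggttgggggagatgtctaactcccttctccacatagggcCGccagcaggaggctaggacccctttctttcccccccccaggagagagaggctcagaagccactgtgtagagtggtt
These windows held 13 CpG at Cbx8, 16 at Sox1, 1 at Atoh1, 8 at Cdx2, 20 at Id2 and 3 at Ythdf1. The Cbx8, Sox1 and Atoh1 windows come from peaks that overlapped EZH2 in both genotypes. Sox1 and Atoh1 were picked as extremes of CpG density, so the span between them reflects that choice. In the central 1 kb, intergenic peaks on and off gene-trap EZH2 had the same median, 4.1 CpG per 100 bp.

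Over all intergenic peaks, the central 1 kb held a median of 4.1 CpG per 100 bp (quartiles 3 and 5.6, range 0.3 to 15.5). Promoter peaks held 6.9, exonic peaks 5.4, intronic peaks 4 and all MTF2 peaks 5.9. The 74464 windows of 1 kb tiled every 20 kb over the intergenic genome held a median of 0.6. The median of the intergenic peaks thus lay between that of promoter peaks and that of the intergenic genome. A stretch of 200 bp with at least 50% GC and an observed over expected CpG ratio of at least 0.6, as in a CpG island, was found in 1004 of 1147 intergenic peaks (87.5%, 85.5% to 89.4%). The same stretch was found in 97.5% of promoter peaks, 94.7% of exonic peaks, 80.6% of intronic peaks and 4.22% of tiled windows. GC content had a median of 54.5% against 62.9% at promoter peaks, 55.4% at intronic peaks and 40.8% in tiled windows. Repeats took a median of 10.6% of the central 1 kb, against 6.2% at promoter peaks, 10.3% at intronic peaks and 29.9% in tiled windows.

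Intergenic peaks were narrower than promoter peaks, with a median width of 640 bp (quartiles 373 and 1164, range 184 to 5798) against 1014 bp. The median was 752 bp for exonic peaks, 582 bp for intronic peaks and 860 bp over all MTF2 peaks. For intergenic peaks the median gap to the next MTF2 peak of any class was 2077 bp, against 63616 bp for promoter peaks and 728 bp for intronic peaks. Of the 686 wild-type H3K27me3 peaks that held intergenic MTF2 peaks, 510 held 1 of them. MTF2 peaks of other classes, which may lie in the same H3K27me3 peak, are not in that count. The median distance to the nearest protein-coding TSS was 14127 bp (quartiles 5406 and 50736), from the least distance the rule allows, near 1 kb, up to 2240419 bp. Within 5 kb of a TSS lay 272 peaks (23.7%), more than 10 kb away 660 (57.5%) and more than 100 kb away 161 (12.1% to 16.2% by the 95% interval). More of them lay upstream of the nearest TSS (713, 62.2%) than downstream (434, 37.8%). The rule leaves out gene bodies, which run downstream from a TSS, so it favours the upstream side. Its part in these shares was not tested. The peak farthest from a TSS was nearest to Tenm3, which encodes a teneurin cell adhesion protein. It was 2099 bp wide, lay at chr8:50915109-50917207 at the start of the lncRNA C130073E24Rik, and overlapped all 3 wild-type marks but, of the gene-trap lists, H3K4me3 alone.

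**Figure D1:**
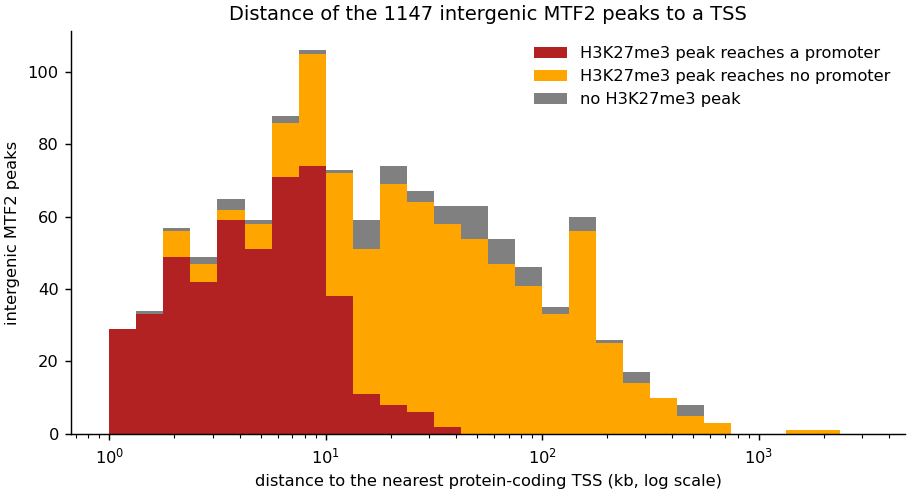
Number of intergenic MTF2 peaks (vertical axis) by distance to the nearest protein-coding TSS in kb (horizontal axis, log scale), with colours for the wild-type H3K27me3 peak that each one overlaps. The 473 peaks whose H3K27me3 peak reaches a promoter lie mostly within 10 kb, and the 607 whose H3K27me3 peak reaches none extend past 100 kb.

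In wild-type cells the intergenic peaks carried the PRC2 marks about as often as promoter peaks did. EZH2 overlapped 1064 of 1147 (92.8%, 91.1% to 94.2%), against 94.3% of promoter peaks and 93.7% of all MTF2 peaks. H3K27me3 overlapped 1080 (94.2%, 92.6% to 95.4%), against 95.3% of promoter peaks and 95.4% of all MTF2 peaks. The overlap was nearly complete along the sequence: of the 1035902 bp in intergenic peaks, 93.3% lay in wild-type EZH2 peaks and 96.5% in wild-type H3K27me3 peaks.

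The share with H3K4me3 was lower than at promoter peaks, a difference that was not tested. It overlapped 797 intergenic peaks (69.5%, 66.7% to 72.1%), against 97.1% of promoter peaks, 89.2% of all MTF2 peaks, 89.2% of exonic and 72.1% of intronic peaks. All 3 marks met at 721 intergenic peaks (62.9%), EZH2 and H3K27me3 without H3K4me3 at 300 (26.2%), and none of the 3 at 9. These combinations were not counted for the other classes of MTF2 peaks. The H3K4me3 peaks they met had a median width of 1399 bp, against 1915 bp for those at promoter MTF2 peaks.

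In gene-trap cells EZH2 was called at few of these regions. It overlapped 64 intergenic peaks (5.58%, 4.32% to 7.07%), against 5.53% of promoter peaks and 5.63% of all MTF2 peaks, so the share was near that of the whole list. Both depend on the overlap asked for and on peak width: the intergenic share was 1.13% with at least 50% of the MTF2 peak covered and 2.18% with its midpoint covered, and promoter peaks weighted to the widths of the intergenic ones had 2.7%. H3K27me3 was still called at 381 intergenic peaks (33.2%, 30.5% to 36.0%), against 16.7% of promoter peaks (15.6% to 17.9%) and 22.1% of all MTF2 peaks. Exonic peaks had 25.3% and intronic peaks 34.0%. Gene-trap H3K4me3 overlapped 884 intergenic peaks (77.1%, 74.5% to 79.5%), against 98.5% of promoter peaks and 91.9% of all MTF2 peaks.

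**Figure D2:**
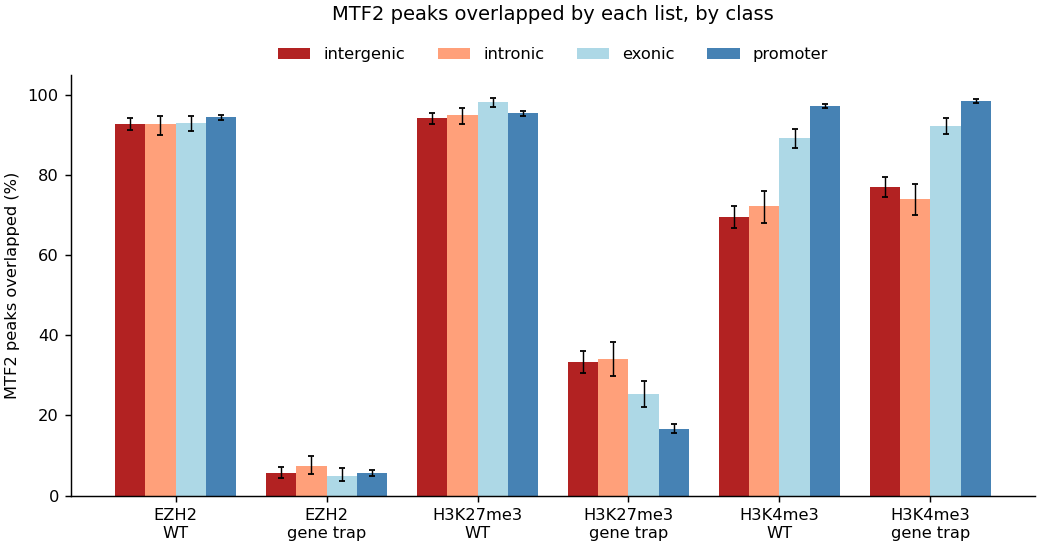
Share of MTF2 peaks of each class overlapped by at least 1 bp in each of 6 lists (bars, percent, from 0), with exact 95% intervals over regions (lines). Intergenic peaks (dark red) are near the other classes for EZH2 in both genotypes, below promoter peaks for H3K4me3 (69.5% and 97.1% in wild-type cells), and above them for gene-trap H3K27me3 (33.2% and 16.7%).

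Followed from one genotype to the other, an intergenic peak is called kept for a mark when both the wild-type and the gene-trap list overlap it. EZH2 was kept at 64 of 1064 (6.02%, 4.66% to 7.62%), beside 6.01% of all MTF2 peaks with wild-type EZH2. H3K27me3 was kept at 381 of 1080 (35.3%, 32.4% to 38.2%), beside 23.2% over all MTF2 peaks and 17.5% at promoter peaks. H3K4me3 was kept at 762 of 797 (95.6%, 93.9% to 96.9%), beside 98.8% over all MTF2 peaks, and it was absent from the gene-trap list at 35. Gene-trap EZH2 was found at 0 of the 83 intergenic peaks without the wild-type mark, which allows a share of up to 4.35%, and gene-trap H3K27me3 at 0 of 67, which allows up to 5.36%. H3K4me3 was in the gene-trap list alone at 122 of the 350 peaks without it in wild-type cells (34.9%, 29.9% to 40.1%), beside 34.9% over all MTF2 peaks. That last share lay between those of promoter peaks (53.1%, 60 of 113) and intronic peaks (18.4%, 27 of 147).

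The commonest state in gene-trap cells was H3K4me3 alone, at 659 intergenic peaks (57.5%). H3K27me3 and H3K4me3 without EZH2 were found at 170, H3K27me3 alone at 153, all 3 marks at 49, EZH2 and H3K27me3 at 9, EZH2 and H3K4me3 at 6, and none at 101. Combinations of marks were counted for intergenic peaks alone, so how they compare with all MTF2 peaks is not known. Where gene-trap EZH2 was called it was narrow, with a median of 343 bp inside the MTF2 peak, and it came with gene-trap H3K27me3 at 58 of 64 peaks (90.6%, 80.7% to 96.5%). Those 64 MTF2 peaks were wide, with a median of 2270 bp against 607 bp for the others. A wide peak has more room to be overlapped, and the part of width in this difference was not tested.

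CpG density and H3K4me3 went together among the intergenic peaks. Those on wild-type H3K4me3 held a median of 4.8 CpG per 100 bp (quartiles 3.8 and 6.1) and those off it 2.8 (1.9 and 3.58). Width moved with both, with medians of 734 bp and 436.5 bp. The H3K27me3 peak around them moved the other way, with a median width of 5475 bp for peaks on H3K4me3 and 18662 bp for peaks off it. Gene-trap H3K27me3 was called at 24.1% of the peaks on wild-type H3K4me3 and 54.0% of those off it. Of the 143 intergenic peaks with no island-like stretch, 27.3% overlapped wild-type H3K4me3 and 74.8% gene-trap H3K27me3, against 75.5% and 27.3% of the 1004 with such a stretch. The H3K27me3 peak around the 143 had a median width of 19345 bp, against 6437.5 bp for the 1004. Their median distance to a TSS was 5495 bp, against 16763.5 bp. The part of that width and distance in these shares was not tested.

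**Figure D3:**
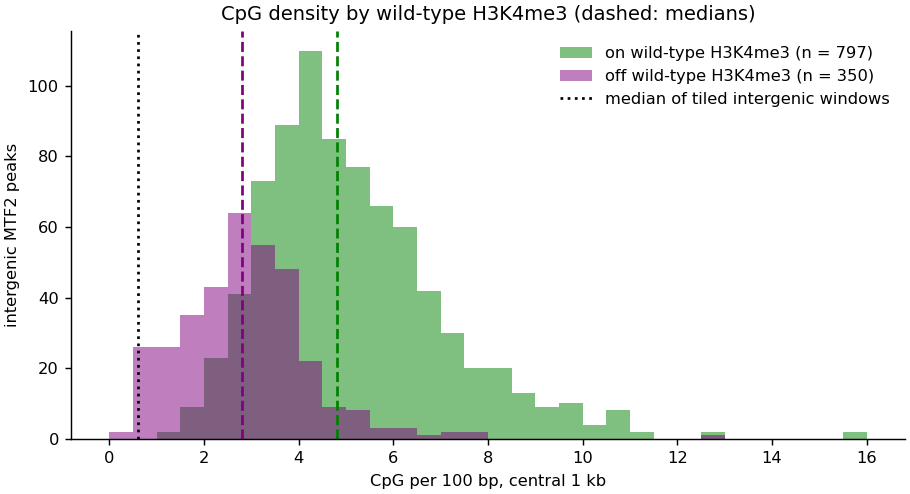
Number of intergenic MTF2 peaks (vertical axis) by CpG per 100 bp in the central 1 kb (horizontal axis), split by wild-type H3K4me3. Dashed lines mark the medians, 4.8 for the 797 peaks on H3K4me3 and 2.8 for the 350 off it, and the dotted line marks the median of tiled intergenic windows, 0.6.

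The wild-type H3K27me3 peak around a member, called its domain here (the widest, where a member touches more than 1), divided the intergenic peaks into 2 kinds. In the first kind the domain also reaches a protein-coding promoter window: 473 peaks (41.2%) in 207 domains, with a median domain of 20491 bp. In the second it reaches none: 607 peaks (52.9%) in 479 domains, with a median domain of 4236 bp. The remaining 67 peaks overlapped no wild-type H3K27me3 peak, and of these 43 overlapped EZH2 and 49 H3K4me3. In 396 of the 479 domains without a promoter there was 1 MTF2 peak and no other.

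The marks were distributed differently over the 2 kinds. Peaks in domains that reach a promoter had a median of 3.3 CpG per 100 bp, and 50.7% overlapped wild-type H3K4me3, 9.30% gene-trap EZH2 and 64.5% gene-trap H3K27me3 (60.0% to 68.8%). Peaks in domains without a promoter had a median of 4.7 CpG per 100 bp, and 83.7% overlapped wild-type H3K4me3, 2.97% gene-trap EZH2 and 12.5% gene-trap H3K27me3 (9.99% to 15.4%). The domains differ in width, and within a width class the contrast in gene-trap H3K27me3 was not seen below 20 kb. In domains of 5 to 10 kb gene-trap H3K27me3 was called at 11.4% of the peaks in domains that reach a promoter (4 of 35) and 16.1% of those in domains that do not (26 of 161), at 10 to 20 kb at 53.1% (85 of 160) and 52.5% (31 of 59), and above 20 kb at 80.3% (216 of 269, 75.0% to 84.9%) and 55.6% (15 of 27, 35.3% to 74.5%). Gene-trap EZH2 at 10 to 20 kb was called at 6.88% and 11.9%. For wild-type H3K4me3 a contrast remained in the wider classes. In domains with and without a promoter the shares were 85.7% and 82.6% at 5 to 10 kb. They were 52.5% and 71.2% at 10 to 20 kb, and 43.9% and 66.7% above 20 kb. Of the 64 intergenic peaks on gene-trap EZH2, 44 lay in a domain that reaches a promoter. By distance, gene-trap H3K27me3 was called at 45.4% of the peaks up to 2.5 kb from a TSS, 63.4% from 2.5 to 5 kb, 54.4% from 5 to 10 kb, 20.5% from 10 to 50 kb, 16.4% from 50 to 100 kb and 11.7% from 100 to 500 kb. Peaks of 1 domain share that domain's state and are not independent: 34 domains with 5 or more intergenic peaks held 217 of them.

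Domain width moved with all of these values. Among intergenic peaks, gene-trap H3K27me3 was called at 0 of 61 in domains under 2 kb (up to 5.87%), 1.30% in domains of 2 to 5 kb, 15.3% at 5 to 10 kb, 53.0% at 10 to 20 kb and 78.0% (72.9% to 82.6%) above 20 kb. Promoter peaks in the same width classes had 0%, 2.88%, 17.4%, 61.0% and 91.3% (86.2% to 94.9%). Within a class of domain width, then, the intergenic share was not above the promoter share, although it was above it over all domains. Weighting the promoter peaks to the domain widths of the intergenic peaks, a comparison added after seeing the data, gave 39.0% in place of 16.7%. Gene-trap EZH2 in domains above 20 kb was called at 36 of 296 intergenic peaks (12.2%, 8.67% to 16.4%) and at 115 of 183 promoter peaks (62.8%, 55.4% to 69.9%). At 10 to 20 kb the shares were 8.22% and 21.5%, and in domains under 2 kb 3 of 61 intergenic and 0 of 188 promoter peaks had it. Intergenic MTF2 peaks are narrower than promoter peaks, and the part of that in the EZH2 shares was not tested.

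**Figure D4:**
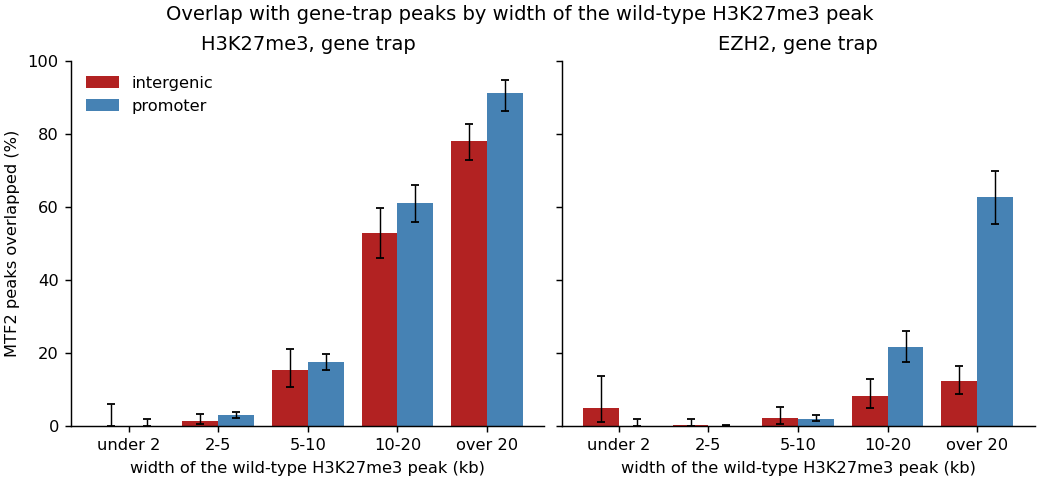
Share of MTF2 peaks overlapped by gene-trap H3K27me3 (left) and gene-trap EZH2 (right) by width of the wild-type H3K27me3 peak around them in kb, for intergenic (red) and promoter (blue) peaks, with exact 95% intervals. The H3K27me3 shares rise from class to class, and above 20 kb the intergenic and promoter shares are 78.0% and 91.3% for H3K27me3 and 12.2% and 62.8% for EZH2.

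The genes nearest to intergenic MTF2 peaks included many developmental transcription factors. The 1147 peaks had 648 nearest genes, 2.96% of the 21924 protein-coding genes. Of these 648, 336 (51.9%, 47.9% to 55.8%) had an MTF2 peak at their own promoter, as did 15.9% of all genes, and 360 (55.6%) had wild-type H3K27me3 there, as did 19.2% of all genes. A nearest gene is only a neighbour, and the lists hold no measure of its expression or of contact with the peak.

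Homeobox genes led the lists. Among the Hox clusters and Evx genes, which pattern the body axis, 21 of 41 (51.2%) were nearest to at least 1 intergenic peak, and among other homeobox regulators 63 of 117 (53.8%). The latter had 185 intergenic peaks, 115 of them on gene-trap H3K27me3. Basic helix-loop-helix regulators had 21 of 56 genes, forkhead factors 15 of 44, POU factors 6 of 15, Sox factors 7 of 19, T-box factors 6 of 16, GATA factors 2 of 6, nuclear receptors 7 of 40, zinc finger regulators 17 of 68, and Ebf, Tfap2 and Dmrt factors 8 of 27. Signalling ligands and antagonists had 11 of 91, led by the Notch ligand Dll1 with 5 peaks. Lists of genes that work in differentiated neurons were near the share of all genes, with 5 of 218 neuronal channels and receptors (2.29%) and 8 of 190 axon guidance and adhesion genes (4.21%). Ribosomal protein genes had 1 of 92. Polycomb genes had 4 of 33 and pluripotency factors 3 of 27, namely Sox2, Klf4 and Nr5a2, and none of those 3 had an MTF2 peak at its promoter.

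The genes of any of these 17 lists had 520 intergenic peaks, of which 288 overlapped gene-trap H3K27me3, and genes in no list had 627, of which 93 did. The distances differed as well, with medians of 7295 bp and 29970 bp. The part of distance and domain width in the difference in H3K27me3 was not tested.

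Mef2c, a MADS-box factor of muscle and brain, was the nearest gene of the most intergenic peaks, 14, and all lay 137901 to 169132 bp downstream of its TSS in 1 domain of 33895 bp at chr13:83712802-83746696. That domain reaches no promoter and holds Mir9-2, which encodes the neural microRNA miR-9. All 14 peaks overlapped wild-type EZH2, 8 overlapped wild-type and 9 gene-trap H3K4me3, 3 gene-trap H3K27me3 and 0 gene-trap EZH2. Gene-trap H3K27me3 was left over 3471 bp of the domain, around the widest of the 14 peaks, 1972 bp. CpG density over the 14 ran from 2.4 to 10.5 per 100 bp.

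The domain with Mir9-3 kept more. It spans 20178 bp at chr7:79498215-79518392, reaches no promoter, and its peaks are nearest to Polg, the mitochondrial DNA polymerase. Its 6 intergenic peaks all overlapped gene-trap H3K27me3, which covered 19794 bp of the domain, and 3 overlapped gene-trap EZH2 over 8, 173 and 157 bp. All 6 carried wild-type H3K4me3 and 5 the gene-trap mark.

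Uncx, a homeobox factor of somites and neurons, was nearest to 12 intergenic peaks. Of these 9 lay with the Uncx promoter in 1 domain of 26861 bp, and all 9 overlapped gene-trap H3K27me3, which covered 22759 bp. The widest, 5083 bp at chr5:139548537-139553619, overlapped wild-type H3K4me3 over 208 bp and gene-trap H3K4me3 over 1730 bp, and gene-trap EZH2 over 524 bp. The other 3 lay 36350 to 55637 bp from the TSS in 2 separate domains and did not overlap gene-trap H3K27me3.

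**Figure D5:**
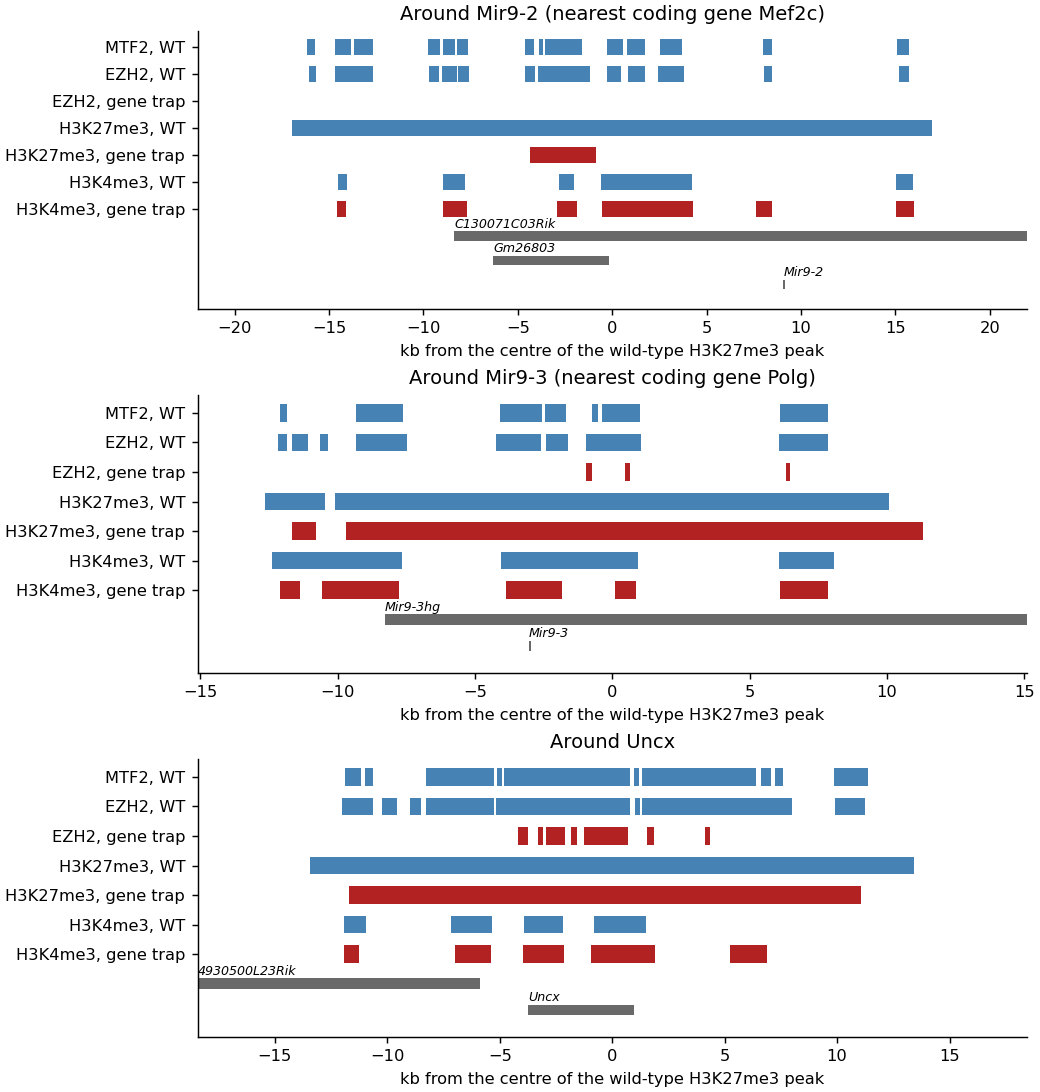
Peaks of the 7 lists (rows; blue wild type, red gene trap) and annotated genes (grey) around Mir9-2, Mir9-3 and Uncx, in kb from the centre of the wild-type H3K27me3 peak. Gene-trap H3K27me3 covers 3471 bp of the 33895 bp domain at Mir9-2, 19794 of 20178 bp at Mir9-3 and 22759 of 26861 bp at Uncx.

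Other genes with many intergenic peaks showed the same range. Hoxb13, the most posterior Hoxb gene, had 11, all of them on gene-trap H3K27me3 and 3 on gene-trap EZH2. Tfap2a, a factor of neural crest and skin, had 9, all on gene-trap H3K27me3 and 3 on gene-trap EZH2. Nr2f2 and Nr2f1, which encode the orphan nuclear receptors COUP-TFII and COUP-TFI, differed: 10 of 10 peaks near Nr2f2 overlapped gene-trap H3K27me3, and 1 of 8 near Nr2f1 did. A domain of 52159 bp that reaches a promoter held 7 of the Nr2f2 peaks, and the rest lay in a domain of 12702 bp that reaches none. All 8 Nr2f1 peaks lay in a domain of 43186 bp that reaches a promoter. The mark was thus called at every intergenic peak of 1 wide domain and at few of another. All 8 peaks near Nr2f1 overlapped gene-trap H3K4me3, and 4 of them wild-type H3K4me3. Meis2, a homeobox cofactor of Hox proteins, had 9 peaks in 2 places, 4 within 8380 bp upstream of a TSS, all on gene-trap H3K27me3, and 5 at 203175 to 211470 bp, of which 2 were. Pax2, a kidney and eye factor, had 8 peaks, 5 on gene-trap H3K27me3. Cbx8, a subunit of Polycomb repressive complex 1 that reads H3K27me3, had 7, all on gene-trap H3K27me3.

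Of the 10 widest intergenic peaks, those nearest to Cbx8, Uncx, Neurog1, Sox1 and Dlx2 had a regulator as nearest gene, and those nearest to Esp38, Spag6, Ulbp1, Ythdf1 and Gdi2 did not. The Cbx8 peak at chr11:119053830-119059254 was 5425 bp wide with 7.1 CpG per 100 bp, and it overlapped gene-trap H3K27me3 over 5347 bp and gene-trap EZH2 over 710 bp. At Neurog1, a proneural factor, a peak of 4877 bp overlapped gene-trap EZH2 over 154 bp, and at Dlx2, a forebrain homeobox factor, one of 3823 bp did so over 256 bp. The Sox1 peak, at the start of the lncRNA Sox1ot and 7649 bp upstream of this neural progenitor gene, was 4144 bp wide with 9.9 CpG per 100 bp and lay wholly in gene-trap H3K27me3. The Atoh1 peak, near a proneural gene of hair cells and cerebellum, had 1.3 CpG per 100 bp over its centre, was 3790 bp wide and lay wholly in gene-trap H3K27me3, with 373 bp in gene-trap EZH2. At Cbx8, Neurog1, Dlx2, Sox1 and Atoh1, the gene-trap EZH2 peak covered a small part of what wild-type EZH2 had covered. At Foxb1 and Foxa1, which encode forkhead factors, peaks of 3531 and 3295 bp lay wholly in gene-trap H3K27me3, had no wild-type H3K4me3, and overlapped gene-trap H3K4me3 over 1146 and 1481 bp.

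Other wide peaks had other states. The peaks nearest to Ulbp1, of 3913 bp, and Ythdf1, of 3838 bp, overlapped gene-trap H3K27me3 over 1528 and 1652 bp and no gene-trap EZH2. The Gdi2 peak, of 3827 bp, overlapped neither, and the Spag6 peak, of 3976 bp, lay wholly in gene-trap H3K27me3 with 980 bp in gene-trap EZH2. The widest of all, 5798 bp at chr17:39843031-39848828, lies on an annotated ribosomal RNA gene and at the starts of the lncRNAs AY036118, Gm26917 and Gm42418, with Esp38 as its nearest protein-coding gene. It had 5408 bp in gene-trap EZH2, the most of any intergenic peak, and no gene-trap H3K27me3. Ribosomal RNA genes exist in many copies in the mouse genome, so reads at this place may come from all of them.

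The intergenic peaks without a PRC2 mark were few and narrow. The 83 without wild-type EZH2 had a median width of 254 bp, and 71.1% of them overlapped H3K27me3. The widest of these with no copy elsewhere lay 5606 bp upstream of Cdx2, a caudal homeobox gene: it was 682 bp wide and lay wholly in H3K27me3 in both genotypes without EZH2 or H3K4me3. The 67 without wild-type H3K27me3 had a median width of 326 bp, and 73.1% overlapped wild-type H3K4me3. Among these was a peak of 1177 bp that lay 2987 bp upstream of Id2, an inhibitor of helix-loop-helix factors, wholly within H3K4me3 in both genotypes. A copy elsewhere in the genome, at 90% identity over at least 50% of the peak, was found for 71 intergenic peaks (6.19%) and 1.52% of promoter peaks, and of these 71 only 67.6% overlapped wild-type H3K27me3 and 7.04% gene-trap H3K27me3.

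The start of an lncRNA lay within 1 kb of 171 intergenic peaks (14.9%, 12.9% to 17.1%), near the 12.9% of all MTF2 peaks. An lncRNA body held 338 (29.5%), beside 17.1% of all MTF2 peaks. Peaks at lncRNA starts overlapped wild-type H3K4me3 in 77.8% of cases and gene-trap H3K27me3 in 31.0%, against 68.0% and 33.6% of the others. Pseudogene starts were within 1 kb of 106 (9.24%), beside 2.16% of all MTF2 peaks. The rule leaves out protein-coding genes, which favours non-coding bodies and starts over the whole list. Its part in these shares was not tested. At lncRNA starts the widest included those near Hand2, a heart and limb factor, of 3467 bp, and near Mkln1 at Lncpint, of 3600 bp. The first overlapped gene-trap H3K27me3 over its whole width and the second not at all.

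The start of a microRNA gene lay within 1 kb of 24 intergenic peaks (2.09%), beside 1.12% of all MTF2 peaks. The rule favours such starts as well. Of the 890 microRNA genes outside protein-coding genes, 26 (2.92%) had such a peak. That share is near the 72 of all 2202 microRNA genes (3.27%) with any MTF2 peak that close. All 24 peaks overlapped wild-type EZH2 and H3K27me3, 20 wild-type H3K4me3, 22 gene-trap H3K4me3 and 10 gene-trap H3K27me3 (41.7%, 22.1% to 63.4%). Gene-trap EZH2 overlapped 0, which allows a share of up to 14.2%. In the same order, the shares over all intergenic peaks were 92.8%, 94.2%, 69.5%, 77.1%, 33.2% and 5.58%. Each lay within the 95% interval for the 24 peaks. Families were then examined by name, after the values were seen. All 3 genes for miR-9 had an intergenic MTF2 peak, and so did Mir124a-2 and Mir124a-3 but not Mir124a-1, Mir129-2 but not Mir129-1, Mir219a-2 but not Mir219a-1, and Mir137, Mir375, Mir203, Mir193a, Mir193b, Mir196a-1 and the pair Mir132 and Mir212.

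The mature sequences of 3 microRNAs known for roles in neurons, miR-9, miR-137 and miR-129, are given from RefSeq (GRCm38.p6), 5′ to 3′, with the seed, bases 2 to 8, in capitals. The 3 genes for miR-9 give identical mature sequences, and the seeds shown differ from each other.
mmu-miR-9-5p: uCUUUGGUuaucuagcuguauga
mmu-miR-9-3p: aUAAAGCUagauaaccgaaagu
mmu-miR-137-3p: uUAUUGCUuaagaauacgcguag
mmu-miR-129-5p: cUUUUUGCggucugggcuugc
The peak at Mir9-1 was 2370 bp wide (chr3:88214368-88216737) and lay wholly in gene-trap H3K27me3, and that at Mir9-3, 1539 bp, did as well. The peak within 1 kb of Mir9-2, 477 bp, ended before the gene. It overlapped gene-trap H3K4me3 alone of the gene-trap marks, and had no H3K4me3 in wild-type cells. The Mir124a-3 peak, 3838 bp and the widest at a microRNA gene, and the Mir124a-2 peak, 2626 bp, kept gene-trap H3K27me3 over 1652 and 1074 bp. At Mir137 the peak of 685 bp, with 4.5 CpG per 100 bp, overlapped all 3 wild-type marks and, in gene-trap cells, H3K4me3 alone. Mir9-1 and Mir9-3 thus lay inside peaks with both gene-trap H3K27me3 and gene-trap H3K4me3, and Mir9-2 lay beside a peak with gene-trap H3K4me3 alone.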

How the data were processed

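The ChIP libraries were sequenced to 75 bases on a NextSeq, per the labels' protocols. The build is mm10 (GRCm38) and the tools named are MACS2 2.7, BWA 0.7.10-r789 and CASAVA, per the submitters' processing notes, which give no roles. The threshold and the way libraries were combined are not given in the sources used here. The lists carry the words MAnorm and unbiased in their names, which these sources do not explain. The 7 deposited lists hold the chromosome, start and end of each region in bp, with no score. Starts were converted to positions counted from 1.

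Each MTF2 peak was classed against GENCODE M21 (promoter, exonic, intronic, then intergenic) and overlapped with the other lists by at least 1 bp, and sequence was read from GRCm38 with pysam 0.24.0. The overlap code was tested on simulated regions against bedtools 2.31.1. Copies were sought with minimap2 2.31-r1302. Shares have exact Clopper-Pearson 95% intervals (scipy 1.17.1).

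The members and gene lists were chosen with earlier results of these data known. Named peaks are the widest, the farthest from a TSS, the widest in each mark state, those at lncRNA starts, and the genes nearest to the most members, in all and in each list. Names of microRNA families and the drawn loci were chosen after values were seen.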

Additional observations from a re-analysis of the deposited data

How the results depend on the processing

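Of 96 alternatives, 48 left a value within its spread (the 95% interval, or 1.5 times for the count of peaks) and 48 moved it, and no value was tested. No paired analysis was possible because each group has 1 list for both libraries, and leaving out a replicate could not be done for the same reason. With at least 50% of the MTF2 peak covered, the intergenic shares became 90.8% for wild-type EZH2, 64.9% for wild-type H3K4me3, 1.13% for gene-trap EZH2, 30.2% for gene-trap H3K27me3 and 73.1% for gene-trap H3K4me3. With the midpoint covered they became 90.8%, 66.3%, 2.18%, 30.1% and 74.2%. Keeping only peaks 500 bp or wider, in the MTF2 list (688 intergenic peaks left) and in the other lists alike, wild-type H3K27me3 became 97.7%, wild-type H3K4me3 77.2%, gene-trap EZH2 1.89%, gene-trap H3K27me3 38.5% and gene-trap H3K4me3 85.2%. A TSS window of 2.5 kb gave a median distance of 19448 bp, and one of 5 kb gave 25489 bp, 4.3 CpG per 100 bp, and shares of 74.4% for wild-type H3K4me3, 26.5% for gene-trap H3K27me3 and 81.3% for gene-trap H3K4me3. Leaving out genes of every class left 670 peaks, 0 of them at non-coding genes by construction, with 66.6% on wild-type and 73.9% on gene-trap H3K4me3, a median distance of 12098 bp and 3.8 CpG per 100 bp. Joining members within 1 kb gave 76.9% for wild-type H3K4me3, 27.5% for gene-trap H3K27me3, 84.5% for gene-trap H3K4me3, a width of 784 bp and 4.3 CpG per 100 bp. Without members whose domain reaches a promoter, the shares were 90.5% for wild-type EZH2, 90.1% for wild-type H3K27me3, 82.6% for wild-type H3K4me3, 2.97% for gene-trap EZH2, 11.3% for gene-trap H3K27me3 and 89.3% for gene-trap H3K4me3. The wild-type H3K27me3 share falls by construction, as all 473 members left out overlap that mark. Whole peaks held 4.77 CpG per 100 bp. Of alternatives added after seeing the data, members without a copy elsewhere had 95.9% on wild-type H3K27me3, and the widest member of each domain 22.4% on gene-trap H3K27me3. Promoter peaks weighted to the widths of the intergenic peaks had 90.8% on wild-type EZH2, 92.8% on wild-type H3K27me3, 96.2% on wild-type H3K4me3, 2.7% on gene-trap EZH2, 10.2% on gene-trap H3K27me3 and 97.9% on gene-trap H3K4me3, and weighted to domain widths they had 39.0% on gene-trap H3K27me3. Against that last value the intergenic share of 33.2% is lower, where against all promoter peaks it is higher. The depth of the libraries is unknown, so how far it limits the gene-trap lists could not be measured.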

Other observations

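The share of MTF2 peaks that are intergenic varied among chromosomes, from 8.53% on chromosome 10 (22 of 258) to 31.9% on chromosome 13 (101 of 317). Chromosome 13 holds the 14 peaks near Mef2c, the 9 near Tfap2a and the 8 near Nr2f1. A group of 8 intergenic peaks with copies elsewhere had Pdia4 or Ezh2 as nearest gene on chromosome 6, with 14 to 17 copies each.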
